A study of Mus musculus with 36 samples.

Results

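Platelet genes were followed in whole blood from 36 mice on day 7 after x-rays, neutrons, or both. They were the 10 genes Pf4, Ppbp, Itga2b, Itgb3, Gp9, Gp1ba, Gp1bb, Gp5, Gp6, and Treml1, taken by gene symbol from the array annotation, and they were represented by 13 of the 39429 gene probes. All mice were male C57BL/6J mice that were 8 to 10 weeks old when irradiated, with 6 mice and 1 single-colour Agilent array per mouse in each of 6 groups. Controls were sham-irradiated. X-rays were given at 3 Gy, and mixed fields named 5, 15, and 25% delivered 3 Gy in total, of which 0.15, 0.45, and 0.75 Gy were neutrons. The neutron alone group received 0.75 Gy of neutrons without x-rays, and its labels give a neutron share of 100% although the source also emits some photons. It matched the 25% mixed field in neutron dose and differed from all the other exposures in total dose. RNA came from whole blood collected in PAXgene solution, and globin RNA had been reduced.

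Platelets are fragments of megakaryocytes, the large bone marrow cells that build the proteins and the RNA that platelets carry, and a platelet has no nucleus with which to replace that RNA. Their surface receptors catch damaged vessel walls and fibrinogen, and their granules release chemokines and adhesive proteins. The 10 genes are widely used to mark megakaryocytes and platelets. In RNA from whole blood, fewer or more platelets and less or more RNA per platelet cannot be told apart.

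The probes of all 10 genes were bright enough to be tested. Of the 13 probes, 12 passed the filters, each of them well above background on all 36 arrays. The third probe of Gp1bb was well above background on 10 of 36 arrays and was left out of the tests. No probe was saturated on any array. Each gene was represented by its brightest probe, for which, except for Itga2b, the array annotation gives positions on the mouse build mm9. Those of Pf4 (chr5:91202275-91202334) and Ppbp (chr5:91198970-91199029) were close neighbours, and those of Itgb3 (chr11:104531672-104531731) and Gp1ba (chr11:70455461-70455520) lay far apart on chromosome 11. The exon and transcript part under each probe was not examined here.

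The sequences before the transcription start are shown for the chemokine neighbours Pf4 and Ppbp and for Gp1ba and Gp5 of the von Willebrand factor receptor, because the members of each pair are expressed in the same cells and yet moved unequally in these data. RefSeq sequences (build GRCm38.p6) were at hand for 9 of the 10 genes, and Itgb3 was not among them. Each line holds 250 bases on the strand of the gene, ending at the base before the start, at chr5:90772185-90772434 (plus strand) for Pf4, chr5:90768268-90768517 (plus strand) for Ppbp, chr11:70638872-70639121 (plus strand) for Gp1ba, and chr16:30310782-30311031 (minus strand) for Gp5. Capitals mark GATA motifs (the letters AGATAA or else TGATAA, and likewise AGATAG or else TGATAG) and ETS motifs (the letters CGGAAG or else AGGAAG), searched on both strands. These are the letters that the megakaryocyte factors GATA1 and FLI1 are known to bind.
Pf4: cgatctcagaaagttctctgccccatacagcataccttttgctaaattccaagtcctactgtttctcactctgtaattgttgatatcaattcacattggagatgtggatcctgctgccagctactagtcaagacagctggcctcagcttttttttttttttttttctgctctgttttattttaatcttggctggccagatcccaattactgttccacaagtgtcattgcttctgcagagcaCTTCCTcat
Ppbp: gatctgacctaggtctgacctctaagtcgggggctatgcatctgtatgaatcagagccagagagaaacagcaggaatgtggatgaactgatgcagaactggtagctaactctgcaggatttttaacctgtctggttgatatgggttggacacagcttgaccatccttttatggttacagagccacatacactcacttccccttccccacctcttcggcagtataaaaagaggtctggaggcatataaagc
Gp1ba: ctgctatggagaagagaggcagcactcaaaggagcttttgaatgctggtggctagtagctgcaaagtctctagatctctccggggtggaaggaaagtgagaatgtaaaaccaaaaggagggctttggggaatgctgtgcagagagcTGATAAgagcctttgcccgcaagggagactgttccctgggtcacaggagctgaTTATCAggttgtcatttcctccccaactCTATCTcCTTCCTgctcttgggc
Gp5: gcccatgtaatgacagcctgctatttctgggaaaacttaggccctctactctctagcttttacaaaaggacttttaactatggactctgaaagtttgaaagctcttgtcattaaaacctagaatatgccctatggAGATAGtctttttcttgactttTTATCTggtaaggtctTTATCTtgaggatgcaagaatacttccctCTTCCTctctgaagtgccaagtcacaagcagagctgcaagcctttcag
A GATA motif was present in 4 of the 9 windows, against 26.5% of 32841 promoter windows of the same length, and an ETS motif in 6 of 9, against 39.2%. Gp1ba and Gp5 each held 3 GATA motifs and 1 ETS motif, Pf4 held 1 ETS motif, and Ppbp held neither. A match is a description of the letters and not a binding site.

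Expression is given as log2 intensity above the median of the array, so that 1 unit is a doubling relative to the median probe, and such levels are compared between mice for 1 gene. The size of a difference between probes of 2 genes has no meaning of its own, and only its change between groups is compared. A gene was called differentially expressed where limma gave an unadjusted p under 0.001 and, after Benjamini-Hochberg adjustment, under 0.05, fitted over 10615 genes on the 12 arrays of a comparison. The arrays lay on 10 slides scanned in 4 sessions, which largely followed the exposures. Controls and x-ray arrays shared a session, and so did the 25% and neutron alone arrays, which shared none with the controls, so that for these exposures session and radiation cannot be told apart. Slide 10 was scanned in a session of its own and held 1 array each of controls, x-rays, 5%, and 15%. The 5% and 15% arrays on it were the lowest of their groups, with a mean over the 10 genes of 8.06 and 8.68 against 8.74 for the control array of the same slide. On average, arrays of exposed mice had a wider upper spread of intensities, and between 15658 and 21367 probes were well above background on an array.

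The 2 platelet chemokines did not move alike. Pf4, platelet factor 4, is released from alpha granules and binds heparin. Its level in controls was 11.16 at the lowest, 12.03 at the median, and 12.20 at the highest. After x-rays the corresponding levels were 12.29, 12.70, and 13.82, and at 15% they were 12.23, 14.09, and 14.75. All 6 arrays of each of these groups lay above every control array. At 25% the levels were 13.16, 13.43, and 14.26. After neutrons alone they were 12.35, 13.06, and 13.53, again above every control. At 5% they were 11.93, 13.32, and 13.84, and the array from slide 10 fell among the controls. Pf4 was 3.91-fold higher at 15% (log2 fold-change 1.97 ± 0.37, SE; adjusted p = 0.000458), 3.01-fold higher at 25% (1.59 ± 0.24; adjusted p = 7.3e-05), and 2.16-fold higher after neutrons alone (1.11 ± 0.22; adjusted p = 0.000534). The values after x-rays (0.90 ± 0.28; adjusted p = 0.0116) and at 5% (1.17 ± 0.33; adjusted p = 0.00798) did not pass the call at p below 0.001. From x-rays upwards, the group means stood in the order x-ray, neutron alone, 5%, 25%, and 15%, and each neighbouring pair differed by less than the larger of its SDs.

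Ppbp encodes pro-platelet basic protein, the precursor of a chemokine that attracts neutrophils. Its controls lay between 10.50 and 11.34, and the 25% arrays, between 11.42 and 12.57, were all above them. The log2 fold-changes were 0.60 after x-rays, 0.43 at 5%, 0.96 at 15%, 0.90 at 25%, and 0.25 after neutrons alone, and none was called (smallest adjusted p = 0.00336, at 25%).

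**Figure D1:**
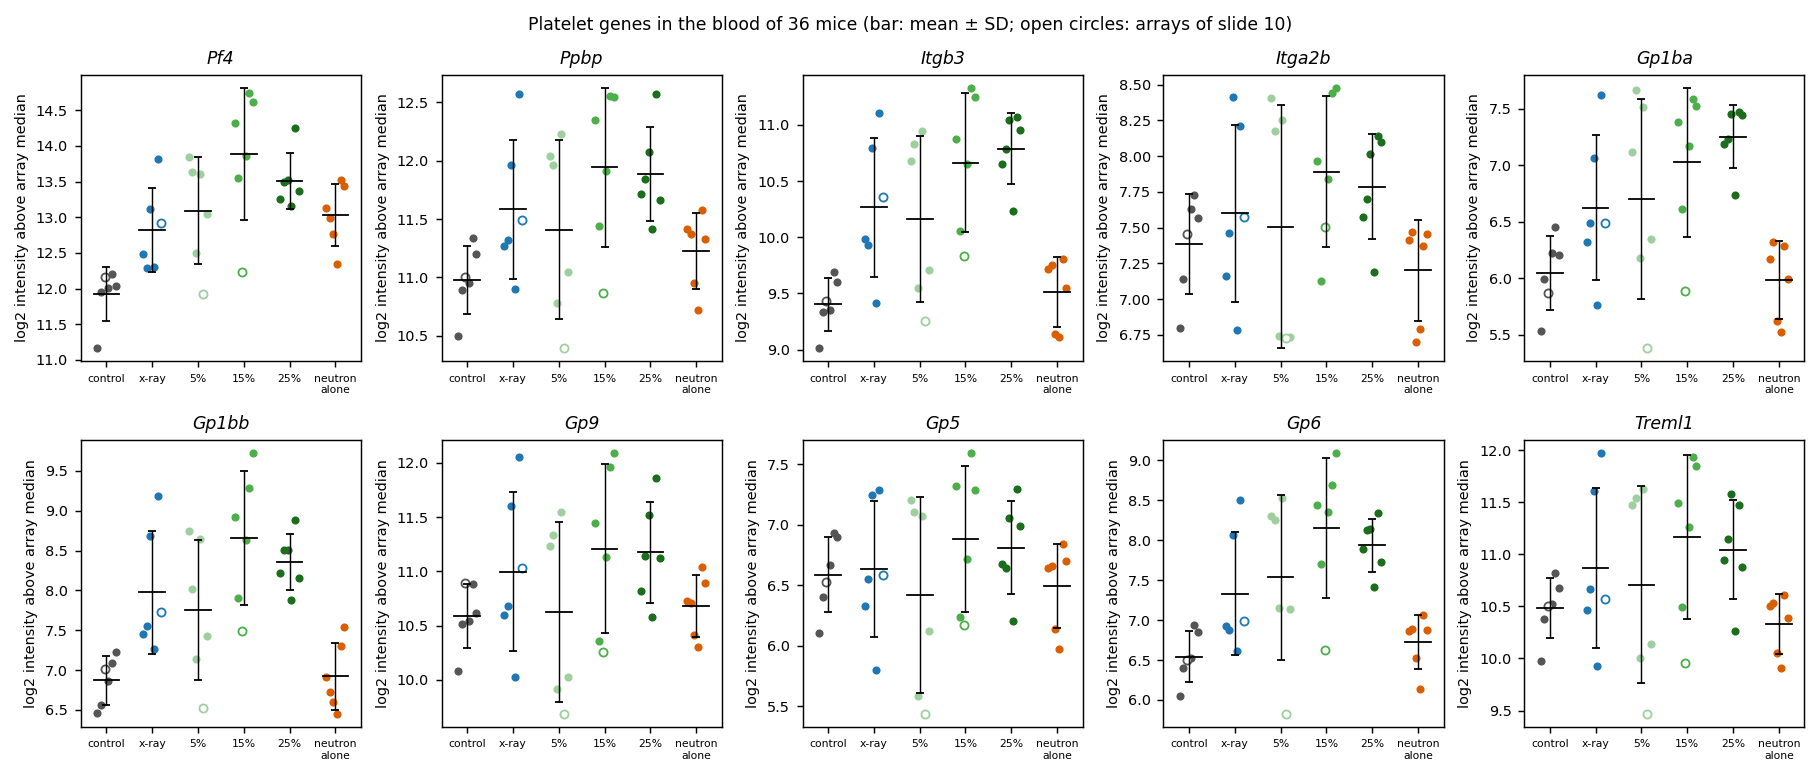
Log2 intensity above the array median (y axis) of each platelet gene in the 6 groups (x axis), with 1 point per mouse, a bar at the mean, and whiskers of 1 SD (n = 6). Open circles are the arrays of slide 10, which at 5% and 15% lie at the low end of their groups, and Pf4 is the gene whose neutron alone arrays all lie above the controls.

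The 2 chains of the fibrinogen receptor also differed. Integrin beta 3, encoded by Itgb3, pairs with integrin alpha IIb, encoded by Itga2b, and the pair binds fibrinogen when platelets aggregate. Itgb3 was between 9.01 and 9.69 in controls (median 9.39), between 9.83 and 11.33 at 15% (median 10.76), and between 10.23 and 11.07 at 25% (median 10.87). Neither exposed group overlapped the controls. After neutrons alone Itgb3 ranged from 9.11 to 9.81, within and just above the control range. Itgb3 was 2.40-fold higher at 15% (log2 fold-change 1.26 ± 0.27; adjusted p = 0.00119) and 2.61-fold higher at 25% (1.39 ± 0.20; adjusted p = 5.72e-05). X-rays gave a log2 fold-change of 0.86 (adjusted p = 0.0111), 5% gave 0.76 (adjusted p = 0.051), and neutrons alone gave 0.11 (adjusted p = 0.571), none of them called. A second Itgb3 probe showed differences of 0.79 after x-rays, 1.38 at 5%, 1.97 at 15%, 1.85 at 25%, and 0.76 after neutrons alone, larger than those of the brightest probe except after x-rays. Itga2b, in contrast, ranged from 6.80 to 7.73 in controls, and its arrays overlapped the controls in every group. Its log2 fold-changes lay between -0.19 after neutrons alone and 0.51 at 15%, with no adjusted p below 0.116.

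The receptor for von Willebrand factor, the GPIb-IX-V complex, slows platelets on a damaged vessel wall. It is built from GP1BA, which carries the binding site, GP1BB, GP9, and GP5, which a thrombin cut releases. Gp1bb levels were 6.46 at the lowest, 6.94 at the median, and 7.22 at the highest in controls. They were 7.49, 8.78, and 9.73 at 15% and 7.88, 8.36, and 8.88 at 25%, with no overlap with the controls. Gp1bb was 3.46-fold higher at 15% (log2 fold-change 1.79 ± 0.34; adjusted p = 0.000461) and 2.81-fold higher at 25% (1.49 ± 0.21; adjusted p = 5.72e-05). After x-rays it was 2.16-fold higher without being called (1.11 ± 0.32; adjusted p = 0.00735), although no x-ray array overlapped the controls. After neutrons alone the log2 fold-change was 0.05 (adjusted p = 0.836). The second Gp1bb probe that passed the filters showed smaller differences of 0.86 after x-rays, 0.76 at 15%, and 0.84 at 25%, and was 0.61 lower after neutrons alone. In the GRCm38.p6 gene table Gp1bb overlaps Septin5, and whether a probe detected both transcripts was not tested.

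Gp1ba ranged from 5.53 to 6.46 in controls (median 6.10) and from 6.74 to 7.48 at 25% (median 7.34). The 25% arrays did not overlap the controls, and Gp1ba was 2.31-fold higher there (log2 fold-change 1.21 ± 0.21; adjusted p = 0.000235). At 15% the log2 fold-change was 0.98 (adjusted p = 0.0104), and after neutrons alone it was -0.06 (adjusted p = 0.782). Gp9 and Gp5 were not called in any group. Their log2 fold-changes ranged from 0.04 at 5% to 0.62 at 15% for Gp9, and from -0.17 at 5% to 0.30 at 15% for Gp5.

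Gp6 encodes the collagen receptor of platelets. Its controls lay between 6.05 and 6.94 (median 6.51), the 15% arrays between 6.62 and 9.09 (median 8.40), and the 25% arrays between 7.41 and 8.34 (median 8.01). The 25% arrays did not overlap the controls, whereas at 15% the array from slide 10 did. Gp6 was 3.05-fold higher at 15% (log2 fold-change 1.61 ± 0.35; adjusted p = 0.00131) and 2.63-fold higher at 25% (1.40 ± 0.21; adjusted p = 9.77e-05). X-rays gave 0.79, 5% gave 0.99, and neutrons alone gave 0.18 on the log2 scale, none called. Treml1 encodes a receptor stored in alpha granules and shown on activated platelets. It was not called in any group, with log2 fold-changes from -0.15 after neutrons alone to 0.68 at 15%.

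**Figure D2:**
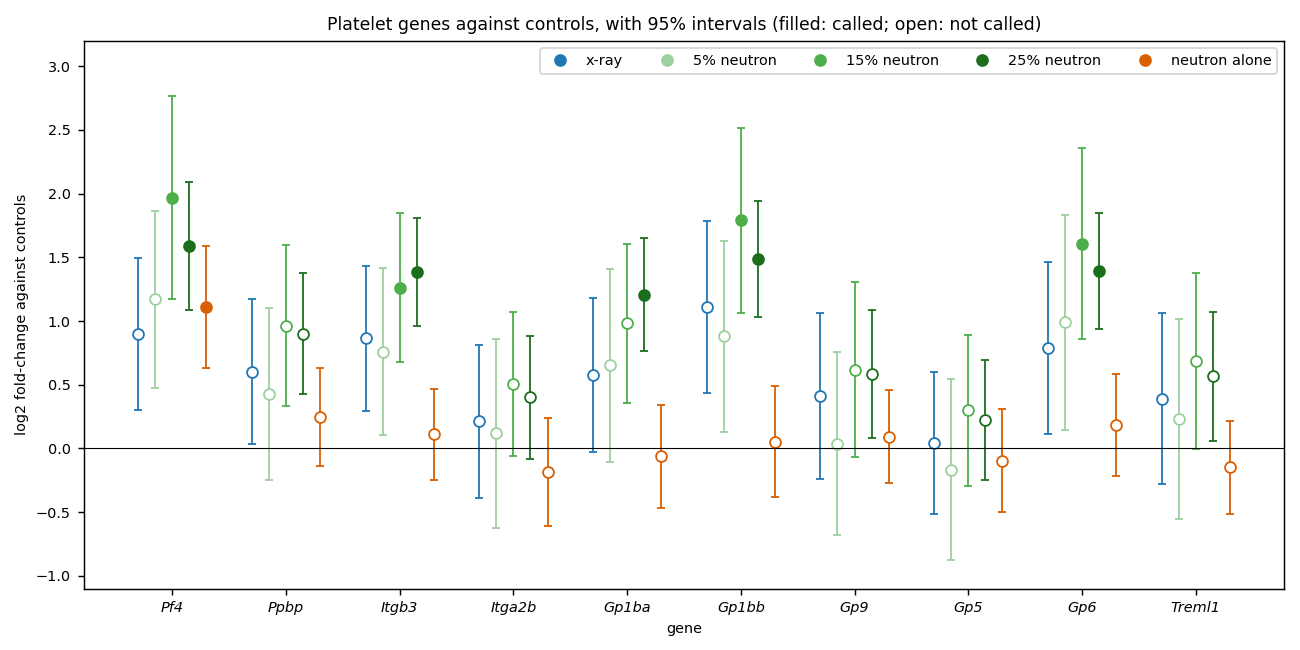
Log2 fold-change against controls (y axis) of the 10 platelet genes (x axis) for 5 exposures, with 95% confidence intervals from limma (6 against 6 arrays). Filled circles are called and open circles are not, and the largest value is 1.97 for Pf4 at 15%.

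Counted over the 10 genes, none was called after x-rays, where 16.3% of all genes tested were called higher (36.2% in either direction), and none at 5%, where 12% were (27.8% in either direction). By an adjusted p below 0.05 alone, 4 of 10 rose after x-rays against 27.6% of all genes, and 3 of 10 at 5% against 22.4%. With limma, 5 of the 10 had an unadjusted p below 0.05 after x-rays, against 69.5% of all genes, and 4 at 5%, against 57% of all genes. At 15%, Pf4, Itgb3, Gp1bb, and Gp6 were called higher, 4 of 10 against 16.5% of all genes called higher (34.9% in either direction). At 25%, Gp1ba joined them, 5 of 10 against 14.4% called higher (30.2% in either direction). After neutrons alone, Pf4 was the only gene called, 1 of 10 against 19.5% called higher (43.6% in either direction). The median log2 fold-change of the 10 genes was 0.59 after x-rays, 0.54 at 5%, 0.97 at 15%, 1.05 at 25%, and 0.07 after neutrons alone. Over all genes tested it was -0.24, -0.09, -0.05, -0.10, and -0.15. No platelet gene was called lower than in controls in any group with the array medians. Spike-in centring called 1 lower after x-rays, 5 at 5%, and 9 after neutrons alone, and the deposited table called Treml1 lower after neutrons alone. Over all genes, spike-in centring called 6716 after x-rays, 7343 at 5%, and 10556 after neutrons alone, in either direction. All 6 exposed arrays lay above all 6 control arrays for 2 of the 10 genes after x-rays (17.9% of all genes), 0 at 5% (9.91%), 3 at 15% (14.1%), 6 at 25% (15.7%), and 1 after neutrons alone (18%).

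Batch bears on these counts. Within the first session, the x-ray arrays exceeded the controls by 0.93 for Pf4, 0.85 for Itgb3, and 1.19 for Gp1bb (5 arrays of each), and for these genes the difference within slide 10 was 0.75, 0.93, and 0.71. On slide 2, with 2 arrays of each group, it was 0.26, 0.32, and 0.35, and the median over the 10 genes was 0.01. At 5%, the only array that shared a session with a control lay below it for all 10 genes (median difference -0.64), so that the direction at 5% turned within slide 10. At 15%, slide 10 held the only array that shared a session with a control, and there Pf4 differed from the control by 0.07, Itgb3 by 0.40, Gp1bb by 0.47, and Gp6 by 0.12. With the slide or the session as a block, which for 15% rests on that pair of arrays, none of the 4 genes was called. Over all genes, 68 were called at 15% with the slide block and 173 with the session block, against 3705 without a block. With either block the median log2 fold-change of the 10 genes at 15% was 0.04, against 0.97 without a block. Lower precision and a difference between sessions cannot be told apart here. Without the 4 arrays of slide 10, Pf4 was also called at 5% (log2 fold-change 1.45), and the differences at 15% were larger (2.35 for Pf4, 2.05 for Gp1bb).

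Scaling of the arrays also bears on them. Over the 36 arrays, the mean of the 10 genes correlated with the distance of the 99th percentile of an array above its median (Pearson r = 0.70 with group means subtracted) and with the number of probes well above background (r = -0.66). Both are descriptions over arrays that share RNA and processing, and their part in the differences was not tested. Under quantile normalization, with 8 of the 10 genes tested, the 25% calls were also 5 and the 15% calls were 0. With normexp background correction or spike-in centring, 0 of the 10 genes were called at 25%, and 1 and 0 at 15%. Over all genes, normexp correction called 424 at 25% and 776 at 15%, against 3208 and 3705 with the array medians. Spike-in centring called 3135 and 5772. After normexp correction, the median of the 10 genes relative to that of all genes was 0.53 after x-rays, -0.225 at 5%, 0.95 at 15%, 0.89 at 25%, and -0.31 after neutrons alone. Under quantile normalization it was 0.22, 0.365, 0.62, 1.02, and -0.11 in the same order. With centring on the spike-in probes, all genes tested had a median log2 fold-change between -0.88 at 25% and -1.88 after neutrons alone. Relative to that median, the median of the 10 genes was 0.92 higher after x-rays, 0.70 at 5%, 1.09 at 15%, 1.19 at 25%, and 0.28 after neutrons alone. With the array medians it was 0.83, 0.63, 1.02, 1.16, and 0.22. Either centring shifts all genes of an array by the same amount, so these relative values could hardly differ and are no independent check. The single call after neutrons alone depended on the scaling, since the log2 fold-change of Pf4, 1.11 with the array medians, was 0.19 under quantile normalization, 0.09 in the deposited expression table, -0.61 after normexp correction, and -0.56 with spike-in centring.

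**Figure D3:**
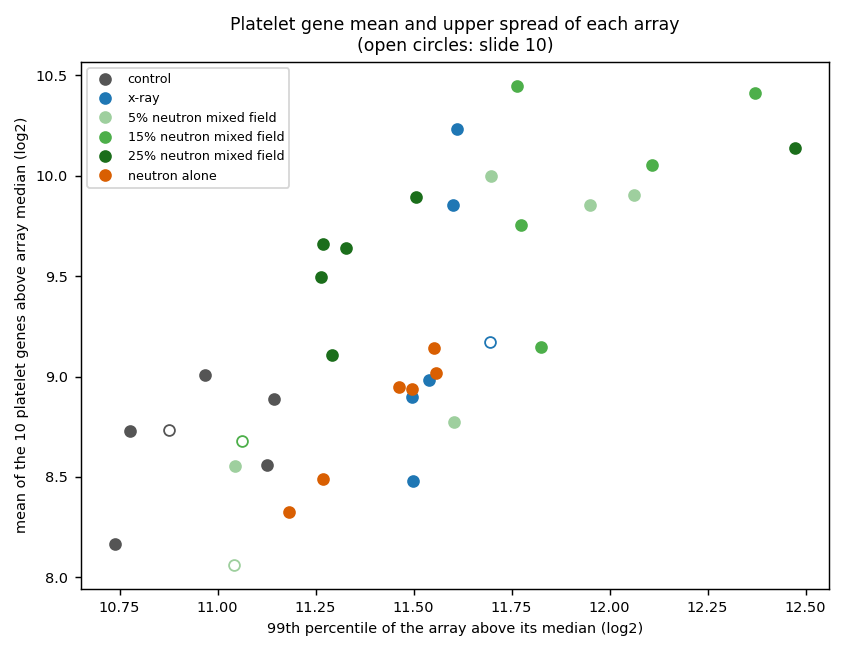
Mean of the 10 platelet genes above the array median (y axis, log2) against the distance of the 99th percentile of the array above its median (x axis, log2), with 1 point per array coloured by group and open circles for slide 10. Controls lie between 8.17 and 9.01 on the y axis, and arrays of exposed mice extend to 10.4 on the y axis and 12.5 on the x axis.

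Differences between 2 genes on the same array do not depend on how the arrays are centred. Such differences were compared for 8 pairs of partner genes in 6 comparisons, chosen after the values had been seen, with exact two-sided permutation tests over 6 against 6 arrays (48 tests; smallest possible p = 0.00216). Pairs of other genes were not compared, so how often such differences arise between any 2 genes is not known. The difference of Itgb3 over Itga2b was 2.02 ± 0.18 (SD, n = 6) in controls, with a highest value of 2.21. It was 2.66 ± 0.21 after x-rays, 2.66 ± 0.24 at 5%, 2.77 ± 0.23 at 15%, and 3.00 ± 0.09 at 25%, and in each of these 3 Gy groups no array overlapped the controls. The shift was 0.65, 0.64, 0.76, and 0.98 (exact permutation test, adjusted p = 0.004 for each), against 0.30 after neutrons alone (exact permutation test, adjusted p = 0.0173). The shift was above 0 in these 4 groups with every alternative tried (0.36 to 2.05), the other Itgb3 probe included. The shift after neutrons alone depended on the values used. It was 0.95 with the other Itgb3 probe and 1.11 in the deposited table, above the x-ray shifts of 0.57 and 1.01 in the same settings, and 0.09 under both quantile normalization and normexp correction.

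Pf4 over Ppbp differed in another way. The within-array difference was 0.94 ± 0.18 in controls and 1.23 ± 0.17 after x-rays, with overlapping arrays (shift 0.30; exact permutation test, adjusted p = 0.0315). In the other exposures no array overlapped the controls. The difference was 1.68 ± 0.22 at 5%, 1.94 ± 0.30 at 15%, 1.63 ± 0.11 at 25%, and 1.80 ± 0.19 after neutrons alone, with shifts of 0.74, 1.00, 0.69, and 0.86 (exact permutation test, adjusted p = 0.004 for each). Under quantile normalization these shifts were 0.62, 0.74, 0.66, and 0.42, and the x-ray shift was 0.15 with an adjusted p of 0.309 by the exact permutation test. On slide 10 the difference was 1.16 in the control, 1.42 after x-rays, 1.53 at 5%, and 1.36 at 15%, which was below the x-ray array. Apart from slide 10, controls and x-ray arrays were scanned in the same session, and the 5%, 15%, 25%, and neutron alone arrays in other sessions. For the contrast between x-rays and those exposures, session and radiation therefore cannot be told apart.

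Within the von Willebrand factor receptor, Gp1ba gained on Gp5 in the 3 Gy groups, with shifts of 0.53 after x-rays, 0.82 at 5%, 0.68 at 15%, and 0.98 at 25% (exact permutation test, adjusted p = 0.004 for each), and no array of these groups overlapped the controls. After neutrons alone the shift was 0.03 (exact permutation test, adjusted p = 0.648). Gp1bb gained on Gp5 by 1.06, 1.05, 1.49, and 1.27 in the same 4 groups, and by 0.82, 0.43, 0.46, and 0.62 with the other Gp1bb probe. Gp1bb over Gp9 shifted by 0.70, 0.84, 1.17, and 0.90, but with the other probe by 0.45, 0.23, 0.14, and 0.25, so that this difference rested largely on the probe. For Gp9 over Gp5 the shifts against controls lay between 0.19 and 0.36, and between -0.24 and 0.07 under quantile normalization.

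**Figure D4:**
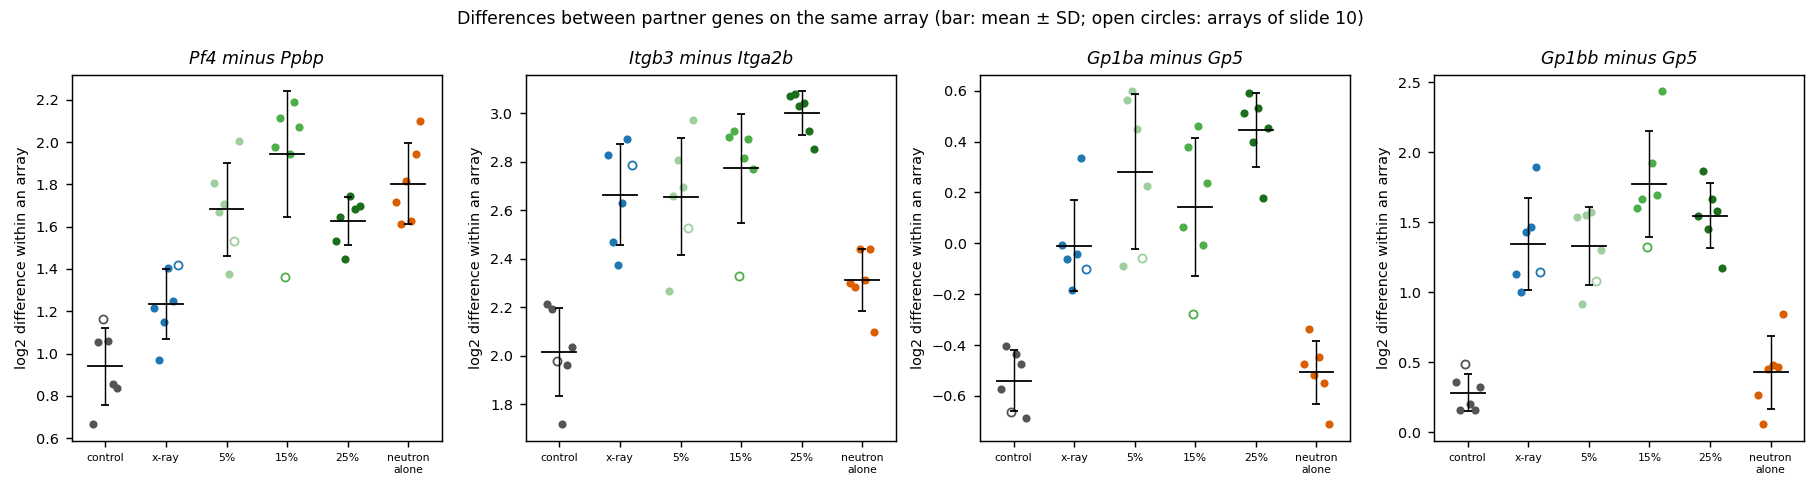
Log2 difference between partner genes on the same array (y axis) for 4 pairs in the 6 groups (x axis), with 1 point per mouse, a bar at the mean, whiskers of 1 SD (n = 6), and open circles for slide 10. The 4 groups given 3 Gy lie above the controls for Itgb3 over Itga2b, Gp1ba over Gp5, and Gp1bb over Gp5, whereas neutron alone lies above them for Pf4 over Ppbp.

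The neutron alone and 25% groups shared the neutron dose and the scan session, and differed in the x-rays that the mixed field added. All 10 genes were lower after neutrons alone, and 4 of them were called lower, where 8.55% of all genes were called lower (13.5% in either direction). Gp1bb was 2.71-fold lower (log2 difference -1.44 ± 0.23; adjusted p = 0.000424), Itgb3 2.42-fold lower (-1.27 ± 0.21; adjusted p = 0.000429), Gp1ba 2.41-fold lower (-1.27 ± 0.21; adjusted p = 0.000435), and Gp6 2.32-fold lower (-1.22 ± 0.21; adjusted p = 0.000761). For each of the 4 genes no array of the 2 groups overlapped, which held for 10.4% of all genes in that direction. For Pf4 the difference was -0.48 (95% interval -0.995 to 0.04; adjusted p = 0.148), which was not called. Slide 8 held 2 arrays of each group, and all 10 genes were lower after neutrons alone on it without overlap, by 0.49 for Gp5 to 1.70 for Gp1bb. The share of all genes without overlap on this slide was not computed. The 10 genes vary together between mice (median r = 0.93 with group means subtracted), so they are not 10 separate observations. Among its 25% arrays was replicate 5, whose 99th percentile lay 12.47 above its median, the widest upper spread of the 36 arrays. With the slide as a block, which rests on the 4 arrays of slide 8, the differences were -1.70 for Gp1bb, -1.28 for Itgb3, -1.22 for Gp1ba, and -1.16 for Gp6, and none was called.

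No platelet gene passed the call against x-rays. None of the 10 genes was called at 5% (0% of all genes called), at 15% (5.25%), at 25% (2.81%), or after neutrons alone (17.1%) against x-rays. In the same fits, 0, 1, 2, and 3 of the 10 genes had an unadjusted p below 0.05, against 24.4, 32.1, 31.2, and 46% of all genes. The largest difference at 15% was 1.07 for Pf4 (95% interval 0.18 to 1.95; adjusted p = 0.0942). At 25% it was 0.69 for Pf4 (0.06 to 1.32; adjusted p = 0.134). After neutrons alone, Gp1bb was 1.06 lower (-1.77 to -0.35; adjusted p = 0.0229) and Itgb3 0.75 lower (-1.34 to -0.17; adjusted p = 0.0444), both short of the unadjusted limit. These 2 of 10 were the genes lower by an adjusted p below 0.05 alone, against 14.9% of all genes. At 5%, the difference for Pf4 was 0.27 (-0.53 to 1.07; adjusted p = 0.679).

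The 10 genes rose and fell together from mouse to mouse. With group means subtracted, Pearson's r over the 36 arrays was between 0.78 (Pf4 and Itga2b) and 0.97 (Itgb3 and Treml1) over the 45 pairs, with a median of 0.93. The mean of the 10 genes spanned 1.76 log2 units after x-rays, 1.93 at 5%, and 1.77 at 15%, against 0.84 in controls, 1.03 at 25%, and 0.82 after neutrons alone. Among the genes outside the 10, those that followed this mean most closely were Myl9 (r = 0.99), Ly6g6c and Zyx (r = 0.98), and Clic4, Pcp4l1, Mast2, Tgfb1i1, A730089K16Rik, Tnnt1, and Myom1 (r = 0.97). Myl9 encodes a regulatory light chain of myosin, and Zyx encodes zyxin, a protein of actin attachments. The correlation of all 10504 other genes with complete values had a median of 0.16, and 161 of them exceeded 0.9. All these correlations share the arrays and their scaling.

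Of these neighbours, Pcp4l1 was called higher at 15% and 25% (log2 fold-change 2.31 and 1.98), as was Myom1 (1.49 and 1.495), and Myl9 (0.98) and Tnnt1 (1.07) were called at 25%. The log2 fold-changes of Zyx ranged from 0.08 after x-rays to 0.85 at 15% and those of Clic4 from 0.01 to 0.58, and neither was called in any group.

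Genes of other platelet proteins were taken from lists. Of 14 genes of granule and secreted proteins, 11 were tested, and 1 was called higher after x-rays, 3 at 5%, 4 at 15%, 6 at 25%, and 1 after neutrons alone, with none lower. Over all genes, 16.3, 12, 16.5, 14.4, and 19.5% were called higher in the same order, so that 1 of 11 was no larger a share than among all genes. The median log2 fold-change was 0.26, 0.47, 1.00, 1.02, and 0.49 in the same order. Thbs1, thrombospondin 1, was 2.49-fold higher after x-rays (adjusted p = 0.000515) and 3.75-fold higher at 25% (adjusted p = 4.42e-06). Selp, P-selectin, which brings leukocytes to activated platelets, was 3.38-fold higher at 5%, 3.44-fold at 15%, and 2.64-fold at 25%. Sparc, a matrix protein carried in alpha granules, was 5.82-fold higher at 25% (adjusted p = 0.000595), and after neutrons alone its log2 fold-change was -0.03. The largest log2 fold-change in this list was about as high at 5% (2.52) as at 25% (2.54).

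Of 16 other receptors and adhesion genes, 14 were tested, and 0, 0, 2, 3, and 1 were called higher in the same order while 1 was lower in every group. These shares of higher calls were near or below those of all genes, except at 25%. P2rx1, an ATP-gated channel, was 2.69-fold higher at 15% and 2.56-fold at 25%, and F2rl2, a thrombin receptor, 2.74-fold and 2.65-fold. The gene that was lower was Tbxa2r, the thromboxane receptor, with log2 fold-changes of -1.40, -1.95, -1.93, -1.46, and -1.08 (largest adjusted p = 0.00025). It is also expressed in cells other than platelets. Of 18 signalling and cytoskeleton genes, 17 were tested, with 1, 1, 2, 4, and 1 called higher and 1 called lower, after neutrons alone. Apart from 4 of 17 at 25%, these shares were below those of all genes called higher. Pde5a, which degrades cyclic GMP, was called higher in all 5 groups (log2 fold-change 0.97 to 1.79). Tbxas1, thromboxane synthase, was called at 15% (1.73) and 25% (1.31). For Gucy1b3, a subunit of soluble guanylate cyclase, the log2 fold-changes lay between -1.06 and -0.40, none called.

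Transcription factors of megakaryocytes went both ways. All 11 were tested, with 3 called higher in every group and between 1 and 2 lower. Over all genes, 16.3, 12, 16.5, 14.4, and 19.5% were called higher after x-rays, at 5%, 15%, and 25%, and after neutrons alone. Called lower were 2109, 1674, 1955, 1675, and 2562 of 10615 genes, so that 1 to 2 of 11 lower was near or below that share. Gata1 was 3.02-fold higher after x-rays, 4.89-fold at 15%, and 2.83-fold after neutrons alone, and its partner Zfpm1 was 6.64-fold, 5.68-fold, and 1.87-fold higher. Both also act in red cell precursors. Fli1, which directs megakaryocytes but is also made by lymphocytes, was lower in all 5 groups, with log2 fold-changes between -1.87 and -1.09. Between neutrons alone and 25%, Thbs1, Sparc, P2rx1, F2rl2, and Zfpm1 were called lower after neutrons alone.

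Markers of other blood cells moved in the same arrays. Of 6 red cell markers, 5 were called higher in each 3 Gy group and all 6 after neutrons alone, and the mean of their levels was between 7.46 and 8.48 in controls and 9.06 or more on every array of exposed mice. Of 5 B cell markers tested, all 5 were called lower in each 3 Gy group, with a median log2 fold-change between -4.83 and -3.82, and 4 after neutrons alone with a median of -1.27. The mean of the neutrophil markers lay between 6.84 and 9.75 over all arrays, with 0 of 5 called higher in any group and 1 of 5 called lower at 15%, at 25%, and after neutrons alone. Of 6 T cell markers, 1 was called lower after x-rays, 2 at 5%, 2 at 15%, 1 at 25%, and 0 after neutrons alone, with none higher. Over all genes, 2109, 1674, 1955, 1675, and 2562 of 10615 were called lower in the same order. A count of 1 of 6 T cell markers or 1 of 5 neutrophil markers was near that share. Between 12% (at 5%) and 19.5% (after neutrons alone) of all genes were called higher. None of 5 NK cell markers was called in either direction, and 2 of 4 monocyte markers were called higher after neutrons alone. The part of the changed cell makeup in the platelet values was not tested.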

How the data were processed

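Blood RNA of 36 mice was hybridised to single-colour Agilent arrays, 1 per mouse. The authors scanned the arrays and deposited spot intensity values from Agilent Feature Extraction 12.0.2, background-corrected but not scaled between arrays, with flags for spots above background. The deposited expression table held log2 intensity values that the authors had filtered and median-normalized; its exact centring is not given in the sources used here, and it lacked Ppbp. It served as an alternative.

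Processed intensities were taken to log2, spots of a probe averaged, and each array centred on its median. Probes were kept if well above background and uniform on more than 75% of arrays, and at least 1.5-fold from the probe median on at least 20% of them. The brightest probe stood for a gene. Each comparison was fitted on its 12 arrays with limma 3.58.1 in R 4.3.3, and the procedure was tested on simulated data. P-values weigh a difference against the spread between arrays within groups, where mouse, slide, and scan session are not separated. The number of arrays limits the precision.

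The 10 platelet genes and the other gene lists were chosen with earlier results of these data known. Genes named from the lists were the 3 of each platelet list with the largest mean absolute log2 fold-change over the exposures, and the 10 genes outside the platelet genes that correlated best with their mean. Alternatives covered scaling, background correction, filters, probes, slide, scan session, and replicate blocks, and leaving out arrays. Figures were drawn with matplotlib 3.10.9. Promoter sequences came from RefSeq.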

Additional observations from a re-analysis of the deposited data

Results flagged for a closer look

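Pf4 was lowest in control replicate 1, at 11.16 (log2 above the array median), far below the other 5 controls, and highest at 25% in replicate 5, at 14.26, far above the other 5 arrays. These were 2 of 60 sets of 6 arrays examined for a single distant value, and chance alone sets off about 1 in 20.

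Exposures to the same neutron dose with and without added x-rays differed for 4 platelet genes. The log2 difference of neutron alone against 25% was -1.27 for Itgb3, -1.27 for Gp1ba, -1.44 for Gp1bb, and -1.22 for Gp6, tested directly with limma (adjusted p = 0.000429, 0.000435, 0.000424, and 0.000761). Each gene was lower in all 6 arrays of neutron alone than in any array at 25%. Over all genes, 8.55% were called lower in this comparison, and 10.4% were lower without overlap. None of the 4 genes was called with the slide as a block or after normexp correction.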

How the results depend on the processing

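The platelet genes called against controls, 0 after x-rays, 0 at 5%, 4 at 15%, 5 at 25%, and 1 after neutrons alone, depended on scaling, background correction, and batch. Centring on spike-in probes, an alternative chosen after seeing the data, gave 1, 5, 0, 0, and 9, and 5 for neutron alone against x-rays and 9 against 25%, every one of them lower. Over all genes, that centring called 6716, 7343, 5772, 3135, and 10556 against controls in either direction, and 2269 for neutron alone against x-rays. The array medians called 3844, 2947, 3705, 3208, and 4627 against controls, and 1813 for neutron alone against x-rays. Normexp correction gave 1 at 15%, 0 at 25%, 0 after neutrons alone, and 0 for neutron alone against 25%. Over all genes, normexp correction called 776 at 15%, 424 at 25%, and 336 after neutrons alone against controls. Quantile normalization gave 0 at 15% and 0 after neutrons alone. The deposited table gave 1 at 15%, 3 at 25%, and 1 for neutron alone against x-rays. The slide block gave 0 at 15% and 0 for neutron alone against 25%, the session block 0 at 15%, and the model over 36 arrays 0 after neutrons alone. Over all genes, the slide block called 68 and the session block 173 at 15%. Centring on probes detected on all arrays gave 1 at 5%, as did leaving out slide 10, chosen after seeing the data. An adjusted p below 0.05 alone gave 4 after x-rays, 3 at 5%, and 2 for neutron alone against x-rays. The causes were not tested.

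Leaving out 1 array at a time gave 0 to 1 after x-rays (1 without x-ray replicate 4), 0 to 2 at 5% (2 without 5% replicate 5), 2 to 6 at 15% (2 without control replicate 1, 15% replicate 1, or 15% replicate 6), 5 to 6 at 25%, and 1 to 1 after neutrons alone. Against x-rays it gave 0 to 0 at 5%, 0 to 1 at 15% (1 without 15% replicate 3), 0 to 0 at 25%, and 0 to 0 for neutron alone, and 4 to 5 for neutron alone against 25%.

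Some directions turned. With spike-in centring the log2 fold-change was -0.955 for Gp5 after x-rays. At 5% it was -0.959 for Ppbp, -1.267 for Itga2b, -1.351 for Gp9, and -1.157 for Treml1. After neutrons alone it was -0.564 for Pf4, -1.427 for Ppbp, -1.563 for Itgb3, -1.582 for Gp9, -1.623 for Gp1bb, and -1.493 for Gp6. Normexp correction gave -0.614 for Pf4 after neutrons alone. Differences within an array that turned are given where the adjusted p was below 0.05 before or after. They were 4 of the 7 that turned among 48 under quantile normalization, 3 of 9 among 42 in the deposited table, 5 of 5 among 24 with the other probes, and 0 of 5 among 48 after normexp correction. Quantile normalization turned Pf4 over Ppbp for neutron alone against 25% (-0.239), Gp1ba over Gp9 (0.342) and Gp1bb over Gp9 (0.353) after neutrons alone, and Gp9 over Gp5 after x-rays (-0.159). The deposited table turned Gp1ba over Gp1bb (0.556) and Gp1bb over Gp5 (-0.454) after neutrons alone, and Gp9 over Gp5 after x-rays (-0.120). The other Gp1bb probe turned Gp1ba over Gp1bb (0.388 at 5%, 0.222 at 15%, 0.367 at 25%, and 0.542 after neutrons alone) and Gp1bb over Gp5 after neutrons alone (-0.509). Of the 48 differences, 33 had an adjusted p below 0.05 by exact permutation, as did 33 under quantile normalization and 34 after normexp correction. The pairs were chosen after the values had been seen, and no share over other gene pairs was computed to set beside these counts.

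Whether replicate numbers paired the mice is not known. Deviations of arrays with the same number correlated with a mean r of 0.056 over 90 pairs, of which 47 exceeded 0.1. For arrays with other numbers the mean r was -0.009 over 450 pairs, of which 187 exceeded 0.1. With the replicate block, 0, 0, 4, 5, and 1 platelet genes were called against controls, 0 in each comparison with x-rays, and 4 for neutron alone against 25%. Over all genes, the block moved the calls at 25% against x-rays from 298 to 1122.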
